A study of Homo sapiens with 19 samples.

Results

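A set of 10 genes of the ERBB2 locus on 17q12 was read in the ERRα ChIP-seq peak lists, namely MED1, CDK12, STARD3, TCAP, PNMT, PGAP3, ERBB2, MIEN1, GRB7 and IKZF3, which are 10 of the 19794 protein-coding genes of the annotation. They were listed by name, as neighbours of ERBB2, with earlier results of these peak lists known. A peak was assigned to a gene when it overlapped the gene body or when its centre lay within 20 kb of one of the gene's annotated starts. The intergenic stretches between STARD3 and ORMDL3 were searched as well. ERRα, encoded by ESRRA, is an orphan nuclear receptor, and ChIP-seq recovers the DNA that it occupies.

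The study asked where ERRα is bound when ERBB receptors are stimulated and when breast cancer cells have become resistant to the kinase inhibitor lapatinib. SKBr3 and BT-474 cells, both established ERBB2-positive breast cancer lines, were serum-starved for 24 h and then given PBS as vehicle, EGF or HRG (each at 100 μM) for 90 min. Parental SKBr3 cells (pSKBr3) were untreated, and lapatinib-resistant SKBr3 cells (LRSKBr3) were maintained in 2 μM lapatinib. Of the 19 libraries, each SKBr3-derived condition had 2 ChIP libraries and 1 input, each BT-474 condition had 1 ChIP library, and the only BT-474 input was from vehicle-treated cells. The authors deposited 1 peak list per condition, 8 in all, so there is no spread between replicates and no difference between lists could be tested. EGF is a ligand of EGFR, HRG (heregulin, a neuregulin) is a ligand of ERBB3 and ERBB4, and LRSKBr3 is a line derived from SKBr3, so the 5 SKBr3-derived lists come from 1 cell line.

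ERBB2 encodes HER2, a receptor tyrosine kinase with no known ligand of its own that signals in dimers with EGFR or ERBB3. In HER2-positive breast cancer the chromosome segment around ERBB2 is amplified, and GRB7, STARD3, PGAP3, MIEN1 and their neighbours are often amplified with it. SKBr3 and BT-474 are known for this amplification. The peak lists give no copy number and no tag counts, so their depth is unknown. ERRα binds the ERR response element (ERRE), whose core is TCAAGGTCA.

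The words shown here are those a reader would look for first. Each line gives 41 bases of the GRCh37 genome on the strand of the word, with the ERRE word in capitals, and together they cover every gene of the 10 that held the word in its body, the intergenic word nearest to GRB7, and 2 words between NEUROD2 and PPP1R1B.
ERBB2, intron, minus strand, chr17:37867927-37867967: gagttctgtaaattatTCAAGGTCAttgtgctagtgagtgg
STARD3, exon, plus strand, chr17:37814244-37814284: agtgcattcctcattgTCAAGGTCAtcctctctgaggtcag
MED1, intron, plus strand, chr17:37577569-37577609: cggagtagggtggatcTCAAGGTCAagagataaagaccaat
CDK12, intron, minus strand, chr17:37720267-37720307: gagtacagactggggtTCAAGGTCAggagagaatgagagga
IKZF3, intron, plus strand, chr17:38011554-38011594: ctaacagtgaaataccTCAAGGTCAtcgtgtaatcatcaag
Between GRB7 and IKZF3, minus strand, chr17:37906574-37906614: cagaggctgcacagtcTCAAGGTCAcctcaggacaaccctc
Beside NEUROD2, inside an LRSKBr3 peak, plus strand, chr17:37773264-37773304: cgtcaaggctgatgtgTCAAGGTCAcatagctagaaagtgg
Between NEUROD2 and PPP1R1B, in no peak, plus strand, chr17:37775883-37775923: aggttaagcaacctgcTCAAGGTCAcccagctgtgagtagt
Of these 8 words, 1 lay in a peak of any list.

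None of the 10 genes had an ERRα peak in range in any of the 8 lists. Where peaks are called against input DNA, an amplified segment is enriched in that input as well. The lists hold no input signal, and which input served the BT-474 lists, if any, was not established. The part of amplification in this count was therefore not tested. The same rule found a peak for 55.8% of all 19794 genes in the SKBr3 vehicle list, 58% on EGF and 68.3% on HRG. It found one for 55.4% of all genes in BT-474 cells on vehicle, 45.2% on EGF and 57.5% on HRG. The share was 58.6% in pSKBr3 and 71.5% in LRSKBr3 cells. Of the other 1150 genes of chromosome 17, between 38.5% (BT-474 EGF) and 72.7% (LRSKBr3) had a peak in range. The 10 genes are neighbours and share their ranges, and the bodies of ERBB2 and PGAP3, and of ERBB2 and MIEN1, overlap. Their count is therefore 1 observation on 1 region rather than 10 separate ones.

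The other receptors of the family had peaks in the same lists. EGFR and ERBB3 had a peak in range in 8 of 8 lists, and ERBB4 in 6 of 8, all but SKBr3 HRG and pSKBr3. Of all genes, 29% had a peak in range in all 8 lists. Any peak in the gene body counts, and the bodies of EGFR and ERBB4 are longer than that of ERBB2, while that of ERBB3 is shorter. ESRRA, which encodes the protein that was precipitated, had a peak in range in 8 of 8 lists. ERBB3, the kinase-impaired partner of HER2, had 1 peak in SKBr3 cells on vehicle, 3 on EGF and 4 on HRG, 4 in pSKBr3, 6 in LRSKBr3 cells, and 2, 1 and 1 in BT-474 cells on vehicle, EGF and HRG. Its highest score was at or above the 96th percentile of its list in all 8. EGFR had 15 peaks in SKBr3 cells on vehicle, 12 on EGF and 5 on HRG, 4, 2 and 3 in BT-474 cells, 4 in pSKBr3 and 9 in LRSKBr3 cells. Its highest score was at or above the 93.2 percentile in the SKBr3-derived lists, but at the 54.6, 33.4 and 62.9 percentile in BT-474 cells on vehicle, EGF and HRG. ERBB4 had only weaker peaks in the SKBr3-derived lists, with highest scores at the 32.3 percentile on vehicle, 24.7 on EGF and 21.1 in LRSKBr3. The BT-474 lists held 18 (vehicle), 20 (EGF) and 27 (HRG) ERBB4 peaks, and their highest scores were at the 90.4, 86.1 and 94.3 percentile.

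ERBB2 (ENSG00000141736, chr17:37844167-37886679, plus strand) has 11 annotated starts in a body of 42513 bp. Measured from the start nearest to a peak, the closest peak centre was 771 kb away in SKBr3 cells on vehicle, 771 kb on EGF and 686 kb on HRG. In BT-474 cells it was 384 kb away on vehicle, 384 kb on EGF and 385 kb on HRG. In pSKBr3 cells the distance was 604 kb and in LRSKBr3 cells 74.9 kb. The treatments left these distances nearly as they were within BT-474 cells, while SKBr3 and BT-474 cells had their nearest peak on opposite sides. In the 3 SKBr3 lists the nearest peak was proximal, in LASP1 on vehicle and EGF. In BT-474 cells it was distal, beside the start of NR1D1, which encodes the circadian repressor REV-ERBα. In pSKBr3 cells it was distal as well, in RARA.

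Few genes lay so far from a peak. Among all genes the median distance ranged from 4.44 kb in LRSKBr3 to 34.2 kb in BT-474 EGF cells. The share of genes as far from a peak as ERBB2, or farther, was 1.61% in SKBr3 vehicle, 1.55% in SKBr3 EGF and 1.59% in SKBr3 HRG. It was 3.18%, 3.94% and 2.07% in BT-474 cells on vehicle, EGF and HRG, 2.75% in pSKBr3 and 15% in LRSKBr3 cells. The LRSKBr3 list thus placed ERBB2 much nearer to a peak than the other lists did, and still outside the range of 20 kb.

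The genes beside ERBB2 lay at similar distances. As neighbours they were measured to the same few peaks of a list, so these are not 10 separate distances. GRB7 encodes an adaptor that binds phosphorylated receptor tyrosine kinases, MIEN1 a membrane-anchored protein linked to cell migration, PGAP3 an enzyme that remodels GPI anchors, and STARD3 a cholesterol transporter of late endosomes. TCAP encodes a protein of the muscle sarcomere and PNMT the enzyme that makes adrenaline, both with restricted expression in normal tissue. Over all 10 genes the median distance was 750 kb in SKBr3 vehicle (range 535 to 814 kb), 749 kb in SKBr3 EGF (534 to 813 kb) and 674 kb in SKBr3 HRG (449 to 754 kb). The medians in BT-474 cells were 419 kb on vehicle (237 to 650 kb), 377 kb on EGF (237 to 448 kb) and 378 kb on HRG (238 to 449 kb). For pSKBr3 the median was 598 kb (457 to 668 kb). The LRSKBr3 median was 96.2 kb, with STARD3 the closest at 24.1 kb and MED1 the farthest at 162 kb. Between 77.4% and 88.2% of all genes had a peak centre within 100 kb, whereas of the 10 genes none did in 7 lists and 5 did in LRSKBr3, namely STARD3, TCAP, PNMT, PGAP3 and ERBB2.

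**Figure D1:**
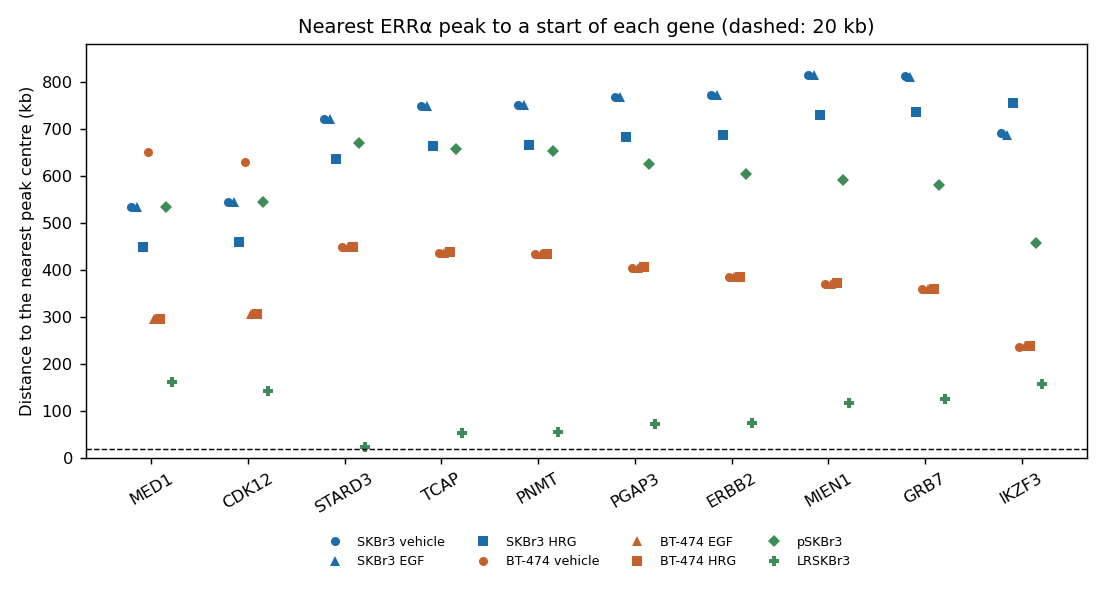
Distance in kb from a start of each of the 10 genes, ordered along the chromosome, to the centre of the nearest ERRα peak in each of the 8 lists (blue SKBr3, orange BT-474, green pSKBr3 and LRSKBr3). Every point lies above the dashed line at 20 kb, with the LRSKBr3 points between 24.1 and 162 kb below all others.

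The genes at both ends of the set are transcriptional regulators. MED1 is the Mediator subunit that contacts nuclear receptors, CDK12 a kinase of elongating RNA polymerase II, and IKZF3 (Aiolos) a zinc-finger factor of lymphoid cells. MED1 was 535 kb from the nearest peak in SKBr3 vehicle, on its proximal side, and IKZF3 was 690 kb away on its distal side. IKZF3 was the closest of the 10 genes to a BT-474 peak, at 237 kb on vehicle and EGF and 238 kb on HRG. Its nearest LRSKBr3 peak, at 157 kb, was a broad one of 18306 bp over CSF3 and the end of MED24 (chr17:38168370-38186675).

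No peak centre lay in the intergenic stretches either. The 8 stretches between STARD3 and ORMDL3 measured 646 to 26698 bp, 52812 bp in all, and held 0 peaks in each of the 8 lists. They include the 7394 bp between MIEN1 and GRB7 and the 10426 bp between GRB7 and IKZF3.

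The whole locus was then taken from the first base of MED1 to the last of ORMDL3, a sphingolipid regulator (chr17:37560538-38083854, 523 kb). It held 15 gene starts, or 28.7 per Mb against 14.3 per Mb over chromosome 17, and its GC content was 47.3% against 45.5%. At the chromosome's own peak density a region of this length would hold 6.45 peaks in SKBr3 vehicle, 7.08 on EGF and 10.7 on HRG. The corresponding values were 5.6, 4.09 and 6.55 peaks in BT-474 cells on vehicle, EGF and HRG, 7.04 in pSKBr3 and 11.1 in LRSKBr3. The lists held 0 peaks there in 7 cases and 1 in LRSKBr3, a density 0.0902 times that of the chromosome. Peaks in every list as deposited are numbered without a gap, and whether peaks were removed before numbering was not tested.

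The 1 peak of the locus was found only in the resistant cells. It ran over 9749 bp (chr17:37764399-37774147), had a score of 1420.42, higher than that of 93.1% of the LRSKBr3 peaks, and covered the first part of NEUROD2, a neuronal transcription factor gene on the minus strand. Its centre lay 74.9 kb proximal of the first ERBB2 start. NEUROD2 and PPP1R1B, which encodes the phosphatase inhibitor DARPP-32, had it in range, and none of the 10 genes did. The peak held the ERRE word printed above with NEUROD2, at its distal end and not within 100 bp of its centre. Among all LRSKBr3 peaks of chromosome 17, 6.1% had the word within 100 bp of the centre. With 1 pooled list for each of pSKBr3 and LRSKBr3, the difference between them at this peak could not be tested.

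**Figure D2:**
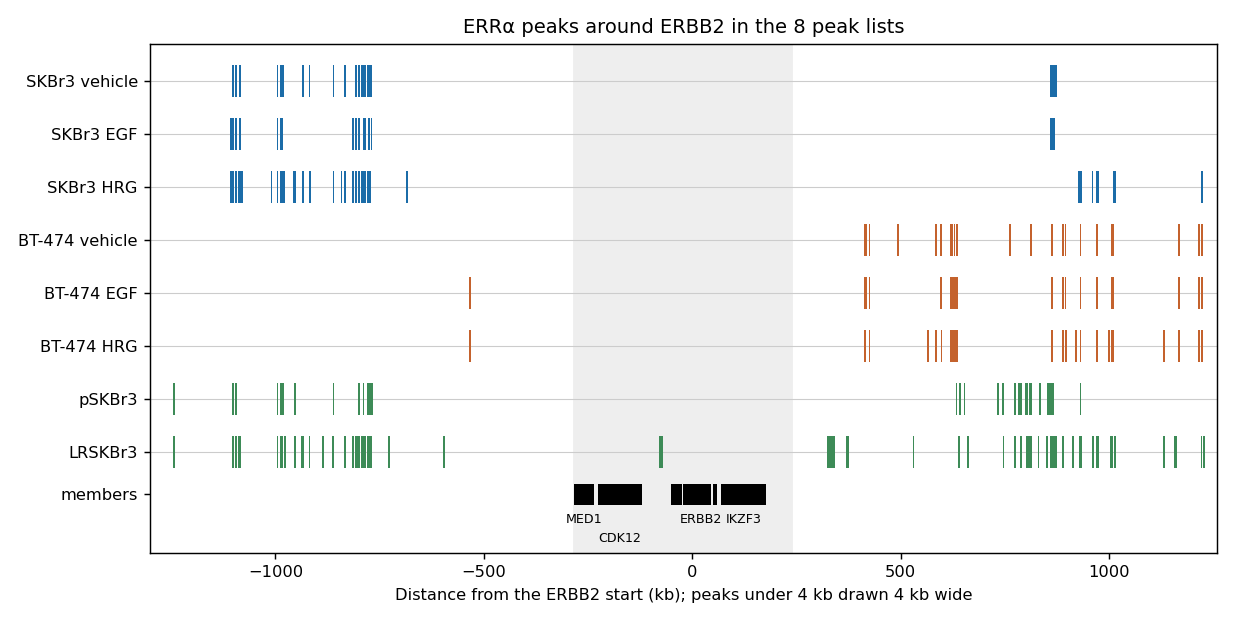
Peaks of the 8 lists plotted by their distance in kb from the ERBB2 start, with the 10 genes as black boxes at the bottom and the locus shaded grey. The shaded locus holds 1 peak, in LRSKBr3, and outside it the 3 SKBr3 lists have most of their peaks on the proximal side, the BT-474 lists on the distal side, and pSKBr3 and LRSKBr3 have them on both.

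How far the stretch without a peak extended was read from the nearest peak on either side of ERBB2. In SKBr3 vehicle it ran from chr17:37074291 to 38701235, 1630 kb with 40 gene starts, and in SKBr3 EGF its length was again 1630 kb with 40 gene starts. SKBr3 HRG gave 1610 kb and 39 gene starts, and pSKBr3 gave 1400 kb and 36. In BT-474 vehicle the stretch was longest, 1840 kb with 44 gene starts, and in BT-474 EGF and HRG it was 942 kb with 26 gene starts in each. In these 7 lists all 10 genes lay inside it. In LRSKBr3 it shortened to 394 kb with 15 gene starts (chr17:37774148-38168369) and left MED1 and CDK12 on the other side of the NEUROD2 peak. Both peaks that end it there are broad (9749 and 18306 bp), and with peaks of 5 kb or wider left out the LRSKBr3 stretch held 31 gene starts. The same step gave 61 gene starts in SKBr3 vehicle and EGF, 39 in SKBr3 HRG, 55 in BT-474 vehicle, 44 in BT-474 EGF and HRG, and 36 in pSKBr3, so the LRSKBr3 stretch still held the fewest.

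Ranked by gene starts among all stretches between neighbouring peaks, with ties sharing the best rank, this one had rank 1 on chromosome 17 in 6 lists, rank 2 in BT-474 EGF and rank 3 in LRSKBr3. Over the whole genome its rank was 5 in SKBr3 vehicle, 5 in SKBr3 EGF and 6 in SKBr3 HRG. It was 4, 20 and 8 in BT-474 cells on vehicle, EGF and HRG, 6 in pSKBr3 and 22 in LRSKBr3. The median stretch on chromosome 17 measured 12.2 kb in LRSKBr3 and 50.4 kb in BT-474 EGF, the lowest and highest of the 8 lists. With the peaks of all 8 lists put together, 394 kb and 15 gene starts around ERBB2 remained free of peaks. This ranked 8 in the genome, tied with at least 2 other stretches of 15 gene starts, both of them longer, 1 on chromosome 1 (663 kb) and 1 on chromosome 17 (chr17:34373150-34888217, 515 kb). Without the LRSKBr3 list, left out after its peak was seen, 942 kb and 26 gene starts remained (chr17:37314368-38256487), and no other stretch of the genome held as many.

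**Figure D3:**
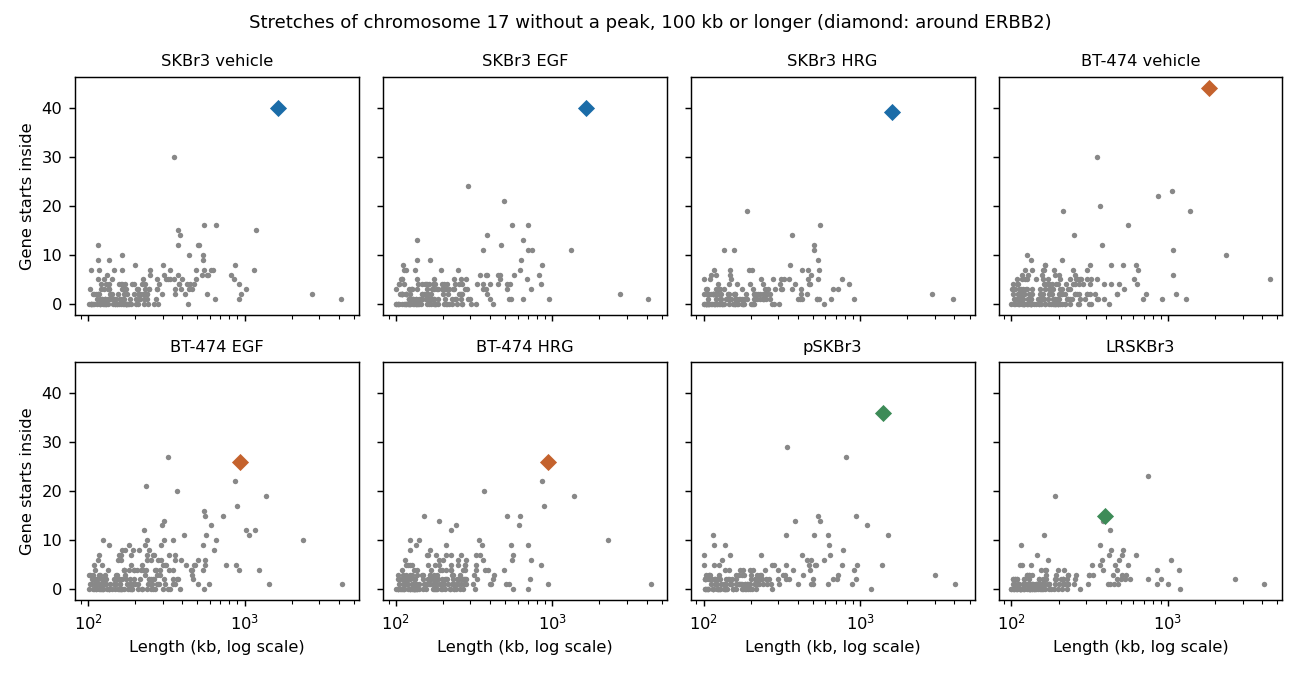
Stretches of chromosome 17 of 100 kb or longer between neighbouring peaks in each list, by length (kb, log scale) and number of gene starts inside. The stretch around ERBB2 (coloured diamond) holds 26 to 44 gene starts in 7 lists and 15 in LRSKBr3, and is the highest point in 6 of the 8 panels.

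Other gene-dense parts of chromosome 17 were compared at the same length. The chromosome was cut into 154 windows as long as the locus, of which 24 others had 15 gene starts or more. Those 24 windows held a median of 8.5 peaks in SKBr3 vehicle, 10.5 on EGF and 17 on HRG. In BT-474 cells the medians were 8, 4.5 and 9.5 peaks on vehicle, EGF and HRG, and the median was 10 in pSKBr3 and 21 in LRSKBr3. In pSKBr3 and LRSKBr3 none of the 24 was empty, the lowest holding 2 peaks. In the 3 SKBr3 lists the only empty one was the window next to the locus, inside the same stretch. In the BT-474 lists the window with 15 gene starts at chr17:3021616-3544932 was empty on vehicle, EGF and HRG, and on vehicle also one with 16 gene starts at chr17:46456927-46980243. A gene-dense window without a peak was thus not particular to the ERBB2 locus in BT-474 cells.

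The 1 Mb on either side of the locus differed between lists. The proximal side differed between the lines, and the distal side also among the SKBr3-derived lists. With no input signal or copy number in the lists, the part of amplification in these counts was not tested. On the proximal side the SKBr3-derived lists had 20 peaks on vehicle, 16 on EGF, 30 on HRG, 16 in pSKBr3 and 28 in LRSKBr3 cells. The BT-474 lists had 0, 1 and 1 there. On the distal side BT-474 cells had 22 peaks on vehicle, 18 on EGF and 22 on HRG, against 1, 1 and 5 in SKBr3 cells, 16 in pSKBr3 and 27 in LRSKBr3 cells. Merged across lists, the proximal side held 35 sites, of which 34 were called in SKBr3-derived lists only and 1 in BT-474 lists only. Of the 46 distal sites, 22 were called in SKBr3-derived lists only, 15 in BT-474 lists only and 9 in both lines. No site on either side was called in all 8 lists.

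Of 29 protein-coding neighbours of the 10 genes, 0 had a peak in range in all 8 lists and 11 (37.9%) had none in any list. Of all genes, 14.1% had none in any list, and 29% had one in all 8. Among the 18 distal neighbours, 10 had a peak in BT-474 vehicle, 7 in BT-474 EGF, 7 in BT-474 HRG, 5 in pSKBr3 and 10 in LRSKBr3, but 1 in each SKBr3 list. As shares these were 55.6%, 38.9% and 38.9% in BT-474 cells on vehicle, EGF and HRG, where all genes gave 55.4%, 45.2% and 57.5%, so the BT-474 counts were near or below the background. They were 27.8% in pSKBr3 (58.6% of all genes), 55.6% in LRSKBr3 (71.5%) and 5.56% in each SKBr3 list (55.8%, 58% and 68.3%). The following neighbours were named after their values were seen. LASP1, an actin-binding protein gene at the proximal edge, had 7 to 12 peaks in range in the 5 SKBr3-derived lists and 0 in the BT-474 lists. NR1D1 had 3, 3 and 2 peaks in BT-474 cells on vehicle, EGF and HRG and 0 in the other 5 lists. RARA, the retinoic acid receptor α gene, had 4 in each BT-474 list, 3 in pSKBr3, 2 in LRSKBr3 and 0 in the SKBr3 lists. TOP2A, the topoisomerase gene often amplified together with ERBB2, had 2 in pSKBr3 and 1 in LRSKBr3.

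Some peaks on either side of the locus were wider than the median of their list, on the distal side all of those in the SKBr3-derived lists. The single distal peak of SKBr3 vehicle measured 19167 bp and that of SKBr3 EGF 12275 bp, where the median peak of the list measured 1405 and 1396 bp. The distal medians were 5921 bp in SKBr3 HRG (list median 1401 bp), 3412 bp in pSKBr3 (1188 bp) and 3686 bp in LRSKBr3 (1458 bp). On the proximal side the medians of these 5 lists were 1252, 1430, 1377, 1054 and 1331 bp, near the list medians. Distal BT-474 peaks had medians of 2158, 1793 and 2019 bp on vehicle, EGF and HRG, again near the list medians of 2012, 1817 and 1957 bp. The only proximal BT-474 peaks, 1 on EGF and 1 on HRG, were wide, at 6409 and 6427 bp. The NEUROD2 peak in LRSKBr3, at 9749 bp, belonged to the wide kind. Of all LRSKBr3 peaks, 1.65% were 5 kb or wider, and 10 of its 27 distal peaks were.

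**Figure D4:**
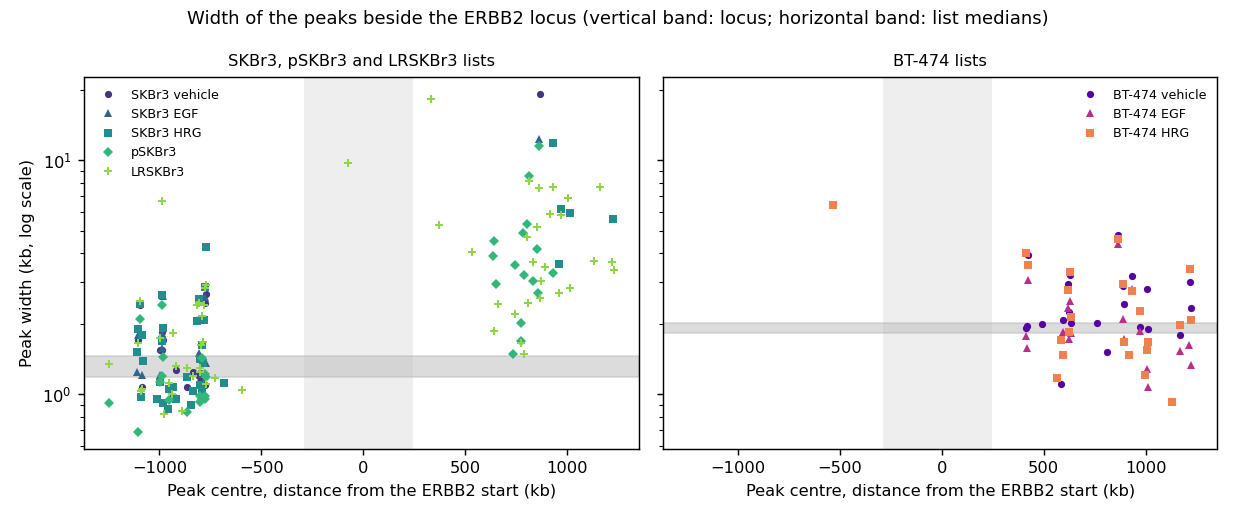
Width of each peak in kb (log scale) against the distance of its centre from the ERBB2 start, for the SKBr3-derived lists (left) and the BT-474 lists (right), with the locus as a vertical band and the range of the list medians as a horizontal band. Distal peaks of the SKBr3-derived lists lie above the band, up to 19167 bp, while most proximal ones and the distal BT-474 peaks lie nearer to it, and the proximal BT-474 peaks, at 6409 and 6427 bp, lie above theirs.

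The sequence of the locus was not poor in ERRE words. TCAAGGTCA, searched on both strands, occurred 15 times in the 523 kb, or 28.7 times per Mb, against 14.7 per Mb over chromosome 17. Of the 15, 10 lay in the bodies of 5 of the genes, with 5 in IKZF3, 2 in MED1 and 1 each in CDK12, STARD3 and ERBB2, and TCAP, PNMT, PGAP3, MIEN1 and GRB7 had none. The ERBB2 word printed above lies in an intron, 1338 bp from an annotated ERBB2 start. Over chromosome 17, 31.4% of the 1195 words lay in a peak of at least 1 list, and in the locus 1 of 15 did. By list, the share of chromosome 17 words in a peak ran from 9.79% in BT-474 EGF to 21.3% in LRSKBr3.

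The shorter word AAGGTCA, which every ERRE word contains, occurred 121 times in the locus, and 5 of these lay in a peak, all in the LRSKBr3 peak at NEUROD2, where 16.1% of these words on chromosome 17 lay in a peak of at least 1 list. The AP-1 word TGACTCA occurred 82 times and lay in a peak 2 times, in the same one, against 12.5% of these words on chromosome 17. In the 1 Mb flanks 29 ERRE words were found, of which 3 lay in a peak in each SKBr3 and each BT-474 list, 6 in pSKBr3 and 7 in LRSKBr3. A word is a match of letters and not a site that was shown to be bound.

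RefSeq promoters (GRCh38.p14, 250 bases before to 50 after a start) were matched by symbol for 6 of the 10 genes, namely CDK12, ERBB2, MED1, MIEN1, PGAP3 and STARD3. No promoter of the 6 held the ERRE word, found in 0.353% of all 35116 promoters, the shorter word, found in 3.92%, or the AP-1 word, found in 4.95%. The ERBB2 and PGAP3 promoters share part of their bases on opposite strands, so the 6 are not separate sequences. ERBB2 has 11 annotated starts, and only its promoter beside PGAP3 was searched. The median GC content of the 6 was 56.9%, with a range of 49 to 73%, against a median of 58.7% over all promoters. PNMT, TCAP, GRB7 and IKZF3 were not matched.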

How the data were processed

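ERRα ChIP-seq was read from 8 deposited peak lists, 1 for each condition. The authors aligned reads to hg19 (GRCh37) with BWA 0.5.9 and called peaks with MACS against input at a P value cutoff of 1e-05, and the labels also name SAMtools 0.1.18. The ChIP libraries of a SKBr3-derived condition were pooled by the authors. The deposited score of each peak is the MACS score, a multiple of −log10 of its P value that equals 50 at the cutoff, and was used only to rank or filter peaks within a list. MACS weighs tags against the background around each position, from input where it is used. A list therefore holds called regions and not occupancy, and a gene without a peak is one for which none was called. The lists held 22539 to 41271 peaks. Read depth is unknown.

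Genes and starts came from GENCODE 44 lifted to GRCh37, and all protein-coding genes were read under the same rule. Peak ranges, stretches and words were computed with Python 3.11.15, numpy 2.4.6, pysam 0.24.0, samtools 1.23.1 and matplotlib 3.10.9. The range rule, the empty stretches and the word search were tested on simulated data. Since the deposited lists keep no replicates apart, no P values are given. The genes, words and neighbour list were chosen with earlier results of these data known. All 10 genes were named, together with ERBB family receptors and ESRRA, and neighbours were to be named only with a peak in all 8 lists. Alternatives concerned the score threshold (100, or P 1e-10), list size, distances, overlap rules, the reference region and the words.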

Additional observations from a re-analysis of the deposited data

How the results depend on the processing

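The 28 results were recomputed under 92 alternatives, of which 78 kept the value within 1.5 times. At 20 kb the count was 0 of the 10 genes in every list, also at a score of at least 100. It was 0 as well at 10 kb and with lists reduced to 22539 peaks. The peaks in range and in the intergenic stretches were also 0 under their alternatives. These settings only remove peaks or narrow a range, so a 0 could not have changed under them. Density ratios of 0 could not move under theirs either. The 78 therefore include results that were fixed in advance. At 100 kb from a start, chosen after seeing the data, LRSKBr3 gave 5 genes and the other lists 0. At 500 kb, chosen likewise, the count was 2 in SKBr3 HRG, 8 in BT-474 vehicle, 10 in BT-474 EGF, BT-474 HRG and LRSKBr3, 1 in pSKBr3, and 0 in SKBr3 vehicle and SKBr3 EGF. Of all genes, 77.8% (BT-474 EGF) to 88.7% (LRSKBr3) had a peak in range at 100 kb, and 96.6% (pSKBr3) to 98.6% (BT-474 HRG) at 500 kb. The locus held 1 site under each merging rule, which was fixed in advance because the lists held only 1 peak there. This site had the word TCAAGGTCA near its centre in 0 cases, against 1 with the word AAGGTCA and 1 with the word anywhere in the peak. With peaks of 5 kb or wider left out, chosen after seeing the data, the stretch around ERBB2 held 61 gene starts in SKBr3 vehicle and EGF, 44 in BT-474 EGF and HRG, and 31 in LRSKBr3. No replicate could be left out, because each list pools its libraries or rests on 1. No paired analysis was possible because no result comes from a test. The lists cannot show binding below the authors' threshold.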

Other observations

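Among the gene-rich stretches without a peak that ranked above the ERBB2 one in SKBr3 vehicle, that of chromosome 8 between TRPS1 and TRIB1 also differed between the lines. It was picked after its values were seen, as a stretch free of peaks in SKBr3 vehicle, so its lack of peaks there follows from that choice. In SKBr3 vehicle it ran over 11 Mb with 47 gene starts and 0 peaks, where the chromosome as a whole had 6.16 peaks per Mb. The same interval held 1 peak on EGF, 4 on HRG, 5 in pSKBr3 and 23 in LRSKBr3 cells. In BT-474 cells it held 226 peaks on vehicle, 209 on EGF and 309 on HRG, or 20.5, 19 and 28.1 per Mb against 11.3, 11 and 15.5 per Mb over chromosome 8. Of its 47 genes, 41 had a peak in range in BT-474 vehicle, 33 on EGF and 41 on HRG, against 0 in SKBr3 vehicle and 7 in LRSKBr3. These were 87.2%, 70.2%, 87.2%, 0% and 14.9%, where all genes gave 55.4%, 45.2%, 57.5%, 55.8% and 71.5%. The difference was not tested, and the lists hold no copy number or input signal for this interval.

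In SKBr3 and pSKBr3 cells, stretches of chromosome 11 between RRM1 and TRIM34, with 56 gene starts, ranked first in the genome. In all 8 lists together, the stretches ranked above the ERBB2 one included those of the DEFB and GAGE gene families.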
